A study of Zea mays with 11 samples.

Results

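The comparison set the ear leaf of maize against the endosperm of the same inbred line at 13 days after pollination (DAP), gene by gene. A gene entered when it reached at least 5 FPKM (fragments relative to transcript length and sequencing depth) in one of these libraries. Of 34145 genes listed, 11433 entered. The measure was the log2 ratio of leaf over endosperm of FPKM + 1, so a positive value is higher in leaf, and 4-fold (2 on this scale) was used as the rule of size.

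All plants were Mo17, an inbred line, grown in the field in summer and self-pollinated on a common date. Tissue was dissected at midday and frozen, and poly(A) RNA was sequenced. The ear leaf, the leaf at the node that bears the ear, was sampled at 13 DAP as the control tissue, beside whole kernels at 3 and 5 DAP and endosperm at 8 stages, of which 7, 9, 10 and 11 DAP precede the stage compared and 15, 20 and 25 DAP follow it. Each of the 11 groups was 1 library, and whether a library pooled plants is not stated. There is therefore no replicate check of any difference below and no test, and the other 7 endosperm stages were used only to show whether a difference was that of the 13 DAP library.

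The ear leaf is a source organ. It fixes carbon by C4 photosynthesis, in which mesophyll and bundle sheath cells share the work, and exports sucrose through the phloem. The endosperm is a sink: it receives sucrose and amino acids through its basal transfer layer and turns them into starch and storage protein, and by mid development its central cells divide little, copy their DNA without division and fill with reserves. In bulk tissue, fewer cells of a type and less RNA per cell cannot be told apart.

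Most leaf and endosperm marker genes went with the labels. Of 62 identifiers for leaf mesophyll and bundle sheath, 42 entered and 41 were at least 4-fold higher in leaf; their FPKM summed to 9310 in leaf and 284 in 13 DAP endosperm, and 36 were listed at 0 there. Most of the endosperm sum came from pdk1 (pyruvate orthophosphate dikinase), at 968.26 FPKM in leaf and 269.41 in endosperm. Another gene of the same Arabidopsis match, CYPPDKZM2, was not among these markers. It went the other way, at 5.15 in leaf and 1343.37 in endosperm. The 11 endosperm markers summed to 9.3 in leaf and 24600 in endosperm, and 10 of them were at least 4-fold higher in endosperm. The 4 basal transfer layer markers summed to 0.09 in leaf and 316 in endosperm, so the endosperm library held this layer. The 3 aleurone markers summed to 28.5 in leaf and 111 in endosperm, and only 1 was at least 4-fold higher in endosperm. This was IDDveg9, at 11.88 in leaf and 80.74 in endosperm. IDD9 was at 5.73 and 23.29, short of 4-fold, and vpp1 was higher in leaf, at 10.85 and 7.29. Of 9 embryo markers, the oleosin ole1 (an oil body protein) was the highest at 48.77 in endosperm. The OLE2-type oleosin AC206941.2_FG002 was at 7.18, wox2A at 4.7 and ole17 at 3.51. The others were low: lec1 was at 0.25, the late embryogenesis genes GRMZM2G473960 and mlg3 at 0.09 and 0.07, and wus1 and wox5B were listed at 0. Guard cell markers were at or near 0 in both libraries, with a leaf sum of 1.2 over 3 genes.

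More genes were far higher in leaf than in endosperm. At least 4-fold higher levels were found in leaf for 3089 genes (27.0% of those compared) and in endosperm for 1100 (9.62%), 4488 (39.3%) lay within 2-fold, and the median over all genes was 0.34 on the log2 scale. The balance depended on the scaling: 73.7% of the genes past 4-fold were leaf-higher with FPKM as deposited, 59.8% after upper quartile scaling and 59.9% after quantile normalization, and the median over all genes ran from -0.12 to 0.51 over the scalings tried. The endosperm RNA was concentrated in few genes, the 10 highest holding 14.2% of its FPKM against 4.71% in leaf. Gene lists are therefore read below beside the shares of 27.0% and 9.62% and the median of 0.34. Since a gene could enter by one tissue alone, 4241 genes entered by their leaf value only and 1941 by their endosperm value only, and these lean toward the tissue that let them in.

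The differences were mostly not those of 1 endosperm stage. The leaf value was above the highest of the 8 endosperm values for 4756 genes (41.6%) and below the lowest for 2834 (24.8%). Of the genes at least 4-fold higher in leaf, 3022 of 3089 (97.8%) lay above every endosperm library. Of those at least 4-fold higher in endosperm, 966 of 1100 (87.8%) were lower in leaf than in every endosperm library. The 8 libraries are stages of one tissue and not replicates.

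**Figure D1:**
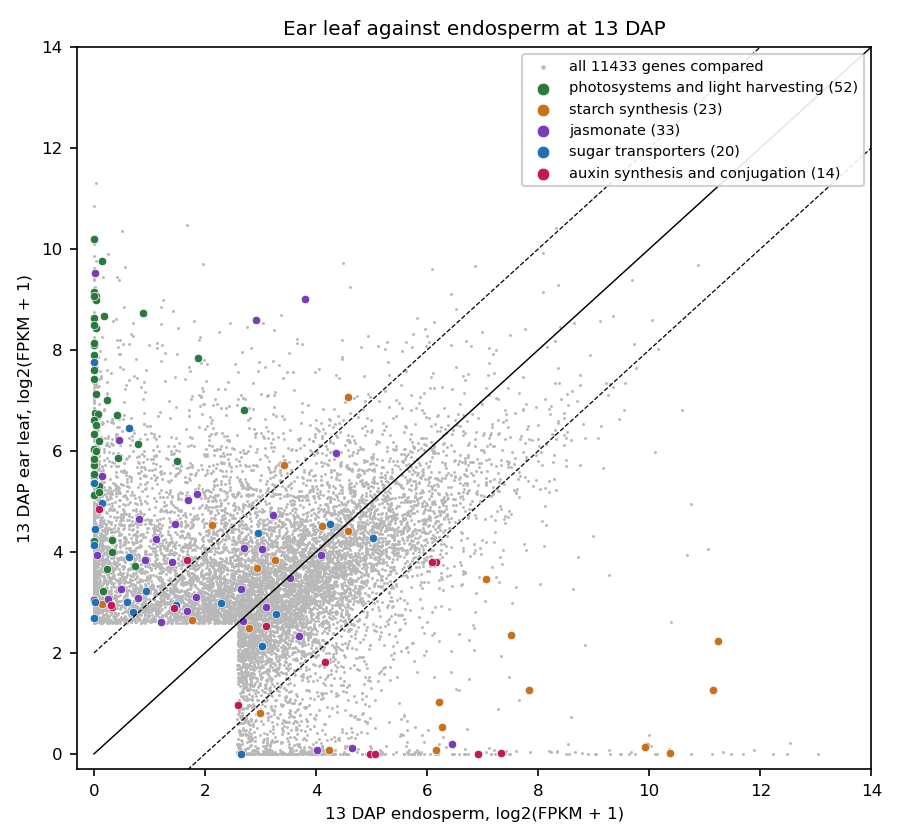
Levels in the 13 DAP ear leaf (vertical axis) and the 13 DAP endosperm (horizontal axis), both as log2(FPKM + 1), for the 11433 genes compared. The solid line marks equal levels and the dashed lines 4-fold; the 52 photosystem genes lie at the left, and starch synthesis genes such as sh2 and bt2 lie at the lower right.

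Genes were grouped into 78 lists by the names and descriptions that accompany the identifiers, and 1600 of the genes compared fell into at least 1 list. Leaving out the heat shock protein list, which was added after its values were seen, 73 of 77 lists had at least 5 genes compared; of these, 56 held more leaf-higher than endosperm-higher genes, 9 held more endosperm-higher genes and 8 held as many of each. The photosynthesis lists bound the scale: all 52 photosystem and light-harvesting genes compared (of 77 identifiers) and all 12 Calvin cycle genes (of 17) were at least 4-fold higher in leaf, which the filter on low values partly fixes, since these genes entered by their leaf level. The other lists follow by role.

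**Figure D2:**
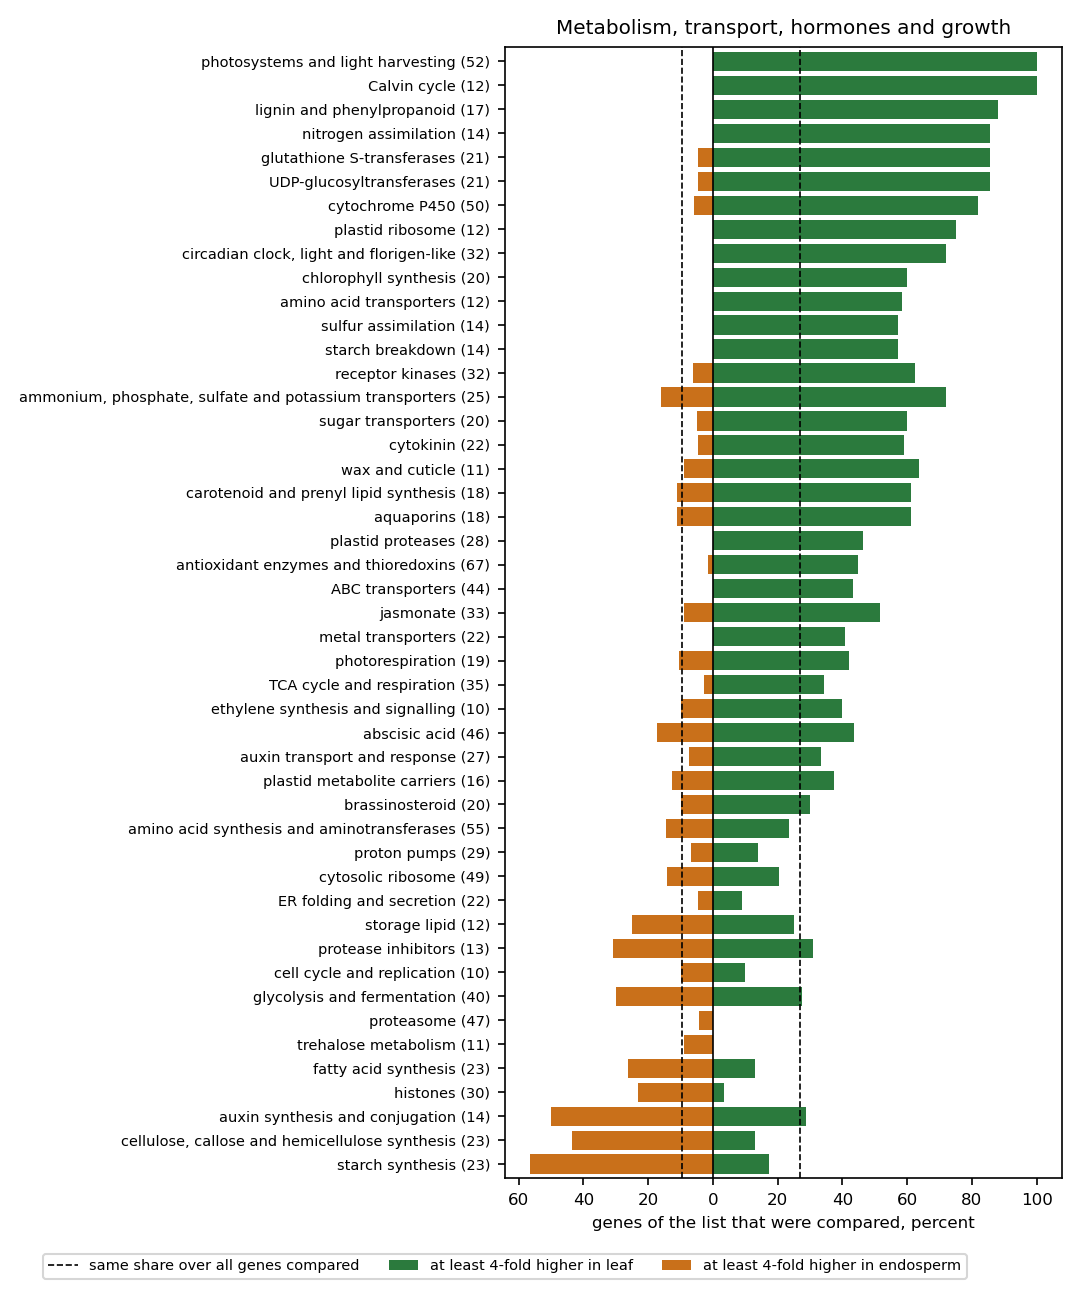
Percent of the genes compared in each list that were at least 4-fold higher in leaf (green, to the right) or in endosperm (orange, to the left), for lists outside the transcription factors with at least 10 genes compared; the number compared is in parentheses. Dashed lines mark the shares over all genes, 27.0% and 9.62%; starch synthesis, cellulose and auxin synthesis reach farthest to the endosperm side.

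In carbon metabolism, starch synthesis leaned to the endosperm, with 13 genes at least 4-fold higher there and 4 in leaf among 23 compared (30 identifiers, median -3.60). Starch breakdown leaned to the leaf, with 8 of 14 genes at least 4-fold higher in leaf and none in endosperm (35 identifiers, median 2.24). A beta-amylase gene matched to AtBAM1 (GRMZM2G025833) was at 50.61 FPKM in leaf and listed at 0 in 13 DAP endosperm, and between 0 and 0.01 in the 8 endosperm libraries. The gene matched to GWD, the dikinase that phosphorylates starch before breakdown, was at 30.19 in leaf and 0.81 in endosperm, with an endosperm range of 0.33 to 1.66. For both genes the leaf value was above the highest of the 8 endosperm values, as it was for 41.6% of all genes compared. Sucrose synthesis was represented by sps1, a sucrose phosphate synthase, at 51.03 in leaf and 0.32 in endosperm, where it stayed between 0.17 and 0.32 over the 8 stages. Of 6 sucrose synthesis genes compared (13 identifiers), 2 were at least 4-fold higher in leaf and none in endosperm.

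Glycolysis and fermentation genes went both ways, 11 leaf-higher and 12 endosperm-higher of 40 compared (64 identifiers), and which direction held more genes changed with the scaling. The most abundant endosperm-higher genes were cytosolic types. The glyceraldehyde-3-phosphate dehydrogenase genes gpc4 and gpc3 stood at 1724.19 and 1650.5 FPKM in endosperm and 30.03 and 14.34 in leaf, log2 ratios of -5.80 and -6.75. Enolase eno1 was at 1142.44 in endosperm and 259.77 in leaf, and the aldolase ald1 at 279.97 and 22.29. All 8 endosperm libraries held gpc4 at 181.06 or more, above the leaf value, while the leaf level of eno1 lay within the endosperm range of 184.18 to 1267.89. The leaf-higher aldolases were the genes matched to AtFBA2, at 606.43 in leaf and 0.01 in endosperm and a plastid type in Arabidopsis, and AtFBA5, a cytosolic type there, at 28.58 and 0.01. Alcohol dehydrogenase split by gene: adh1 was at 153.74 in endosperm and 0.86 in leaf, and adh2 at 2.24 in endosperm and 67.55 in leaf. Pyruvate decarboxylases pdc2 and pdc3, which make the acetaldehyde that alcohol dehydrogenase reduces, were at 29.96 and 20.67 in endosperm and 3.24 and 1.83 in leaf.

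Genes of the citric acid cycle and respiration included 12 leaf-higher and 1 endosperm-higher of 35 compared (67 identifiers, median 0.77), a share of leaf-higher genes of 34.3% beside the 27.0% background. Against 11 DAP endosperm the median of the list was -0.38, so its sign changed with the stage. The highest leaf member was not mitochondrial: mdh6, the chloroplast malate dehydrogenase of the C4 cycle, was at 665.12 in leaf and 0.37 in endosperm. Peroxisomal malate dehydrogenase (GRMZM2G072744, matched to PMDH1) was at 55.37 and 0.14. Mitochondrial members had no common direction: citrate synthase (GRMZM2G064023) was at 47.65 in endosperm and 6.3 in leaf, the malate dehydrogenase mdh2 at 86.9 and 29.63, short of 4-fold, and the succinate dehydrogenase gene GRMZM2G079888 at 3.05 and 20.46, the last within its endosperm range of 1.26 to 23.02.

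The list for cellulose, callose and hemicellulose and the list for lignin and phenylpropanoids leaned to different tissues. Among cellulose, callose and hemicellulose synthases, 10 of 23 genes compared were at least 4-fold higher in endosperm and 3 in leaf (78 identifiers, median -1.72), and 15 of the 23 were lower in leaf than in all 8 endosperm libraries. The cellulose synthases cesa3, cesa5 and cesa6 were at 27.68, 27.4 and 23.73 FPKM in endosperm and at 2.78, 1.3 and 4.02 in leaf. Over the endosperm stages cesa3 ranged from 18.5 to 45.13, cesa5 from 22.9 to 44.27 and cesa6 from 18.56 to 29.62, all above the leaf. A callose synthase gene (GRMZM2G180951, matched to ATGSL12) went the other way, at 18.49 in leaf and 0.16 in endosperm. A pair of genes matched to the wall-loosening expansin ATEXPB4 was at 56.22 and 52.21 in endosperm and at 0.02 and listed at 0 in leaf. Lignin and phenylpropanoid genes were in contrast leaf-higher, 15 of 17 compared and none endosperm-higher (88 identifiers, median 2.83). Phenylalanine ammonia-lyase (GRMZM2G029048), the entry enzyme, was at 40.62 in leaf and 2.18 in endosperm. Cinnamate hydroxylase (matched to ATC4H) was at 33.82 and 0.59, cinnamoyl-CoA reductase cncr1 at 33.37 and 0.09, and cinnamyl alcohol dehydrogenase (GRMZM2G090980) at 34.49 and 1.86. The leaf value of each of these 4 genes was above its highest endosperm value.

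Specialized metabolism had the highest share of leaf-higher genes among the roles outside photosynthesis. Of 111 genes compared in its lists (463 identifiers), 88 were at least 4-fold higher in leaf (79.3%) and 6 in endosperm (5.41%). For cytochrome P450 genes the counts were 41 and 3 of 50 compared, with 235 identifiers. For UDP-glucosyltransferases, which attach sugars to small molecules, they were 18 and 1 of 21. Benzoxazinoids, the cyclic hydroxamic acid defence compounds of maize, had 5 of 7 genes leaf-higher: bx1, which makes the indole precursor, was at 60.77 FPKM in leaf and 0.01 in endosperm, and the P450 genes BX4 and BX5 at 98.23 and 24.98 in leaf and 0.26 and 0.38 in endosperm. The glucosyltransferases of the same pathway, bx8 and bx9, were less far apart, bx9 at 42.06 in leaf and 16.06 in endosperm.

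The carotenoid and prenyl lipid synthesis list also took in carotenoid cleavage dioxygenases. Its genes were leaf-higher for 11 of 18 compared and endosperm-higher for 2 (median 2.49). The carotenoid cleavage dioxygenases wc1 and a gene matched to CCD4 (GRMZM2G110192) were at 266.56 and 157.11 in leaf and 0.35 and 0.03 in endosperm. Some isoprenoid genes were far higher in endosperm. The farnesyl diphosphate synthase fps1, which supplies sterols and other isoprenoids of the cytosol, had one of the lowest ratios of all genes (-9.62): it was at 0.30 in leaf, 1019.87 in 13 DAP endosperm and between 270.23 and 1484.65 over the endosperm stages. The isopentenyl diphosphate isomerase GRMZM2G108285, which acts before it, was at 167.3 in endosperm and 22.96 in leaf. The sterol demethylase matched to CYP51 was at 18.21 and 1.98. These 3 genes had every endosperm value above the leaf value.

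Lipid genes were mixed by pathway. Fatty acid synthesis held 6 endosperm-higher and 3 leaf-higher genes of 23 compared (31 identifiers, median -1.16). Acyl carrier protein, which holds the growing chain, had different genes in each tissue: those matched to ACP4 were at 32.06 (GRMZM2G149580) and 23.88 (GRMZM2G122324) in leaf and 0.07 and 0 in endosperm, and ACP (GRMZM2G091715) was at 31.81 in endosperm and 4.46 in leaf. The plastid desaturase fad7, which adds the last double bond of the membrane lipids of plastids, was at 143.2 in leaf and 0.9 in endosperm. Caleosins, proteins of lipid droplets, also had a gene for each tissue, with GRMZM2G063717 at 263.66 in leaf and listed at 0 in endosperm, and GRMZM2G090505 at 0.21 and 17.34.

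Primary nitrogen and sulfur assimilation leaned to the leaf. Of 14 nitrogen assimilation genes compared (26 identifiers), 12 were leaf-higher and none endosperm-higher, with a median of 3.30. Nitrate reductase NNR1 was at 44.96 FPKM in leaf and 0.06 in endosperm, and nitrite reductase NIR at 13.55 and 0.02. Glutamine synthetases gln4, gln5 and gln1, which fix ammonium, were at 77.39, 34.32 and 22.95 in leaf and 1.24, 0.13 and 0.14 in endosperm. Asparagine synthetase asn3 was at 62.21 and 0.03. Only asn1 and the NADH-dependent glutamate synthase were not leaf-higher: asn1 was at 10.76 in leaf and 12.87 in endosperm, and the synthase gene (GRMZM2G085078) at 2.88 and 12.49, short of 4-fold, whereas the ferredoxin-dependent enzyme fgs1 was at 33.74 and 2.14. In sulfur assimilation 8 of 14 genes were leaf-higher and none endosperm-higher (median 2.80). An ATP sulfurylase matched to APS3 (GRMZM2G149952) was at 206.05 and 9.05, and the enzyme of the next step, an APS reductase (AC189750.4_FG004), at 77.37 and 4.28.

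Amino acid synthesis and aminotransferase genes showed no common direction, with 13 leaf-higher and 8 endosperm-higher of 55 compared (86 identifiers) and a median whose sign changed with the scaling. Aspartate aminotransferases, which move amino groups between aspartate and glutamate, again differed by gene. The genes matched to ASP1 and ASP3 were at 504.82 and 419.21 in endosperm and 19.03 and 13.88 in leaf, and the gene matched to AAT3 was at 252.18 in leaf and 45.93 in endosperm. A leucine synthesis gene, the isopropylmalate synthase GRMZM2G130062, was at 309.94 in endosperm and 42.72 in leaf.

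Redox and plastid housekeeping genes followed the leaf. Glutathione S-transferases were leaf-higher for 18 of 21 genes compared and endosperm-higher for 1. Among antioxidant enzymes and thioredoxins the counts were 30 and 1 of 67 (96 identifiers, median 1.72). Thioredoxin m genes trm1 and GRMZM2G181258, which regulate chloroplast enzymes, were at 206.44 and 190.86 in leaf and at 0 and 0.08 in endosperm, and catalase cat2 at 137.16 and 0.05. The only endosperm-higher member was the peroxiredoxin per-1, of a type known from seeds, listed at 0 in leaf and at 7.46 in endosperm. The thylakoid protease genes FtsH2A and FtsH2B, which remove damaged photosystem II protein, were at 381.85 and 278.06 in leaf and 0.27 and 0.55 in endosperm. Plastid ribosomal protein genes were leaf-higher for 9 of 12 compared. Those of the cytosolic ribosome list gave 10 and 7 of 49, and which direction held more genes changed with the scaling; apart from the RPS27-type gene GRMZM2G377600 (40.85 and 5.7), the leaf-higher ones matched plastid ribosomal proteins, such as GRMZM2G145496 (RPL27) at 414.62 and 9.37, and 3 of them matched genes of the Arabidopsis chloroplast genome.

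The heat shock protein list was chosen after its values were seen. It summed to 11800 FPKM in leaf and 3750 in 13 DAP endosperm, with an endosperm range of 2130 to 7400, and 27 of the 49 genes compared were leaf-higher (hsp18 at 1425.35 and 2.19) and 3 endosperm-higher. The part of these genes' difference in other leaf and endosperm differences was not tested.

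Transport genes were more often leaf-higher than endosperm-higher. Over the transport lists 90 of 191 genes compared (586 identifiers) were at least 4-fold higher in leaf (47.1%) and 11 in endosperm (5.76%). Sugar transporters were leaf-higher for 12 of 20 genes and endosperm-higher for 1 (63 identifiers, median 2.34). The sucrose carriers that load the phloem led: the SWEET13-type genes GRMZM2G173669, GRMZM2G179349 and GRMZM2G021706, sucrose exporters, were at 217.32, 40.08 and 16.68 FPKM in leaf, and all 3 were listed at 0 in 13 DAP endosperm. Their copies are alike, so reads could be shared among them. The sucrose and proton symporter sut1, which takes up what SWEETs release, was at 86.48 in leaf and 0.55 in 13 DAP endosperm; in younger endosperm it was higher, at 10.31 at 7 DAP, still below the leaf. The one endosperm-higher member was a gene matched to AtSWEET7 (GRMZM2G137954), at 5.3 in endosperm and listed at 0 in leaf.

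The most abundant carriers of the plastid envelope were not the same in the tissues. The ADP-glucose carrier bt1 was at 1328.75 FPKM in endosperm and 0.01 in leaf. The glucose 6-phosphate carrier gpt was at 44.12 and 4.48, with an endosperm range of 13.66 to 46.32. In leaf, the genes matched to the anion carrier ANTR2 and to the phosphoenolpyruvate carrier ARAPPT were at 75.26 and 53.76, and at 0.31 and 0.02 in endosperm. The dicarboxylate carriers were less far apart, pDCT2 at 36.46 in leaf and 7.72 in endosperm and pOMT1 at 19.28 and 9.07, the latter short of 4-fold. Counts over this list were 6 leaf-higher and 2 endosperm-higher of 16 (25 identifiers).

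Carriers of amino acids and mineral nutrients and water channels were more often leaf-higher than endosperm-higher. Amino acid transporters were leaf-higher for 7 of 12 genes compared and endosperm-higher for none (48 identifiers); the gene matched to AATL2 was at 29.53 in leaf and listed at 0 in endosperm. For ammonium, phosphate, sulfate and potassium carriers the counts were 18 and 4 of 25 (92 identifiers). The phosphate carriers pht1 and pht3 were at 42.26 and 16.8 in leaf and at 0.02 and 0 in endosperm. The endosperm-higher members were 3 potassium carriers, the AKT1-type channel GRMZM2G022915 at 24.77 in endosperm and 4.88 in leaf with HAK14 (22.53 and 4.85) and HAK15 (7.65 and 1.11), and the PHO1-type phosphate exporter GRMZM5G872499 at 7.05 and 0.8. All 4 were lower in leaf than in every endosperm library. Aquaporins were leaf-higher for 11 of 18 genes and endosperm-higher for 2 (40 identifiers), and both of the latter were vacuolar. Plasma membrane channels of the PIP1 type were at 92.44 (GRMZM2G174807), 70.74 (PIP1-3) and 58.09 (AC209208.3_FG002) in leaf and at 0.12, 0.24 and 0.71 in endosperm, while the seed-type vacuolar channel matched to alpha-TIP (GRMZM2G037327) was at 386.48 in endosperm and 0.65 in leaf. The related tip3a was at 13.73 and 0.02.

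ABC transporters were leaf-higher for 19 of 44 genes compared and endosperm-higher for none (149 identifiers). The highest gene of this list, abcf1, was at 844.42 in leaf and between 11.14 and 21.46 in the endosperm libraries. It is matched to ABCF5 and was listed by the names and descriptions alone, so a transport role was not shown. Plasma membrane proton pump genes mha2 and mha4, which power uptake carriers, were at 33.68 and 27.11 in leaf and 0.94 and 0.69 in endosperm. The vacuolar pyrophosphatase-type pump GRMZM2G041065 (matched to AtAVP1) was listed at 0 in leaf and at 12.47 in endosperm, with an endosperm range of 11.83 to 34.09. Another gene matched to AtAVP1, vpp1, was at 10.85 in leaf and 7.29 in 13 DAP endosperm, within its endosperm range of 2.55 to 45.47 in leaf. Taken over the whole list of 29 proton pump genes, 4 were leaf-higher and 2 endosperm-higher, and the sign of the median changed with the scaling.

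**Figure D3:**
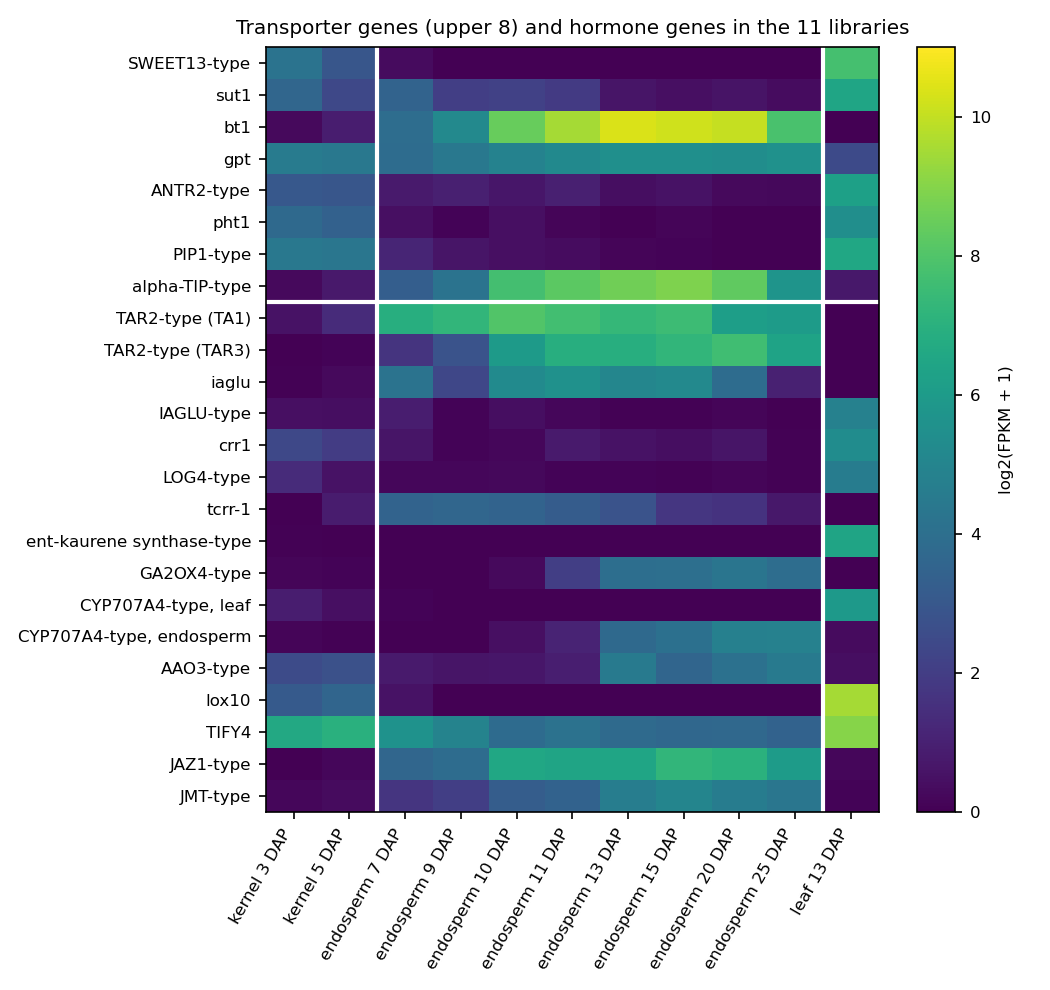
Levels of 8 transporter genes (above the horizontal white line) and 16 hormone genes (below it) in the 11 libraries, as log2(FPKM + 1) in colour; vertical white lines separate kernels, endosperm and leaf. The SWEET13-type gene and lox10 are bright in leaf and dark from 9 to 25 DAP endosperm, and bt1 and the alpha-TIP-type gene show the reverse from 10 DAP on.

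Hormone genes were compared by pathway, 187 genes in all (559 identifiers), of which 86 (46.0%) were leaf-higher and 26 (13.9%) endosperm-higher. Auxin synthesis and conjugation was the hormone list that leaned to the endosperm, with 7 endosperm-higher and 4 leaf-higher of 14 genes compared (41 identifiers, median -1.96). Tryptophan aminotransferase, the entry enzyme of the main auxin route, was represented by TA1 and TAR3, both matched to TAR2. TA1 was at 0.01 FPKM in leaf, 159.6 in 13 DAP endosperm and 63.72 to 259.39 over the 8 endosperm stages, and TAR3 was listed at 0 in leaf and was at 119.42 at 13 DAP. Genes matched to IAR3 and ILR1, hydrolases that free auxin from amino acid conjugates in Arabidopsis, were also endosperm-higher. The IAR3-type gene was at 70.09 in endosperm and 12.97 in leaf, and the ILR1-type gene at 67.23 and 13.02. The ILL6-type gene GRMZM2G476538 went the other way, at 0.23 in endosperm and 6.72 in leaf. Auxin glucosyltransferases differed by gene: iaglu, which conjugates auxin to glucose, was at 32.47 in endosperm and listed at 0 in leaf, and the IAGLU-type gene GRMZM2G457929 was at 27.67 in leaf and 0.06 in endosperm. The list summed to 108 in leaf and to between 324 and 632 in the endosperm libraries. Auxin transport and response genes gave 9 leaf-higher and 2 endosperm-higher of 27, with a median whose sign changed with the scaling. Aux/IAA repressors matched to IAA27 (GRMZM2G147243) and IAA3 (GRMZM2G115357) were at 73.43 and 59.01 in leaf and 4.41 and 1.11 in endosperm.

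Cytokinin genes were leaf-higher for 13 of 22 compared and endosperm-higher for 1 (88 identifiers, median 2.17). They covered activation, breakdown and response. The LOG4-type gene, whose enzyme frees the active base, was at 23.73 FPKM in leaf and 0.08 in endosperm, the cytokinin oxidase cko2 at 20.08 and 0.28, and the type A response regulators crr1 and RR6 at 39.24 and 19.39 in leaf and 0.44 and 0.09 in endosperm. The endosperm-higher gene was tcrr-1, a response regulator known from basal transfer cells in maize, at 6.13 in 13 DAP endosperm and listed at 0 in leaf. Its endosperm values ran from 0.64 to 11.29, beside a basal transfer marker sum of 38.6 to 1020 over the same libraries.

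Gibberellin genes had 6 leaf-higher members of 7 compared (36 identifiers). An ent-kaurene synthase gene (GRMZM2G093526), an early step shared with other diterpenes, was at 83.82 in leaf and between 0 and 0.03 in all endosperm libraries, and the ent-kaurene oxidase gene GRMZM2G161472 was at 18.61 and 0.68. The endosperm-higher member was a gibberellin oxidase of the inactivating type (GRMZM2G078798, matched to ATGA2OX4), listed at 0 in leaf and at 14.82 at 13 DAP. The 7 DAP library had 0.01 and the 9 DAP library 0 for it, and the 20 DAP library had 18.54.

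Abscisic acid genes went both ways, with 20 leaf-higher and 8 endosperm-higher of 46 compared (87 identifiers, median 1.20). Synthesis steps differed in tissue. The zeaxanthin epoxidase genes GRMZM2G136344 and GRMZM2G127139, which also serve the leaf's xanthophyll cycle, were at 223.71 and 73.81 FPKM in leaf and at 0.68 and 0 in endosperm; reads of such copies could be shared. The highest gene of the list, aba1, entered by its name alone; it is also named asr1 and has no Arabidopsis match, and it was at 293.88 in leaf and 0.38 in endosperm. The cleavage enzyme vp14 was at 7.4 and 0.1. The aldehyde oxidase of the last step (GRMZM5G872934, matched to AAO3) was higher in endosperm, at 22.29 against 0.33. Breakdown by abscisic acid hydroxylase had a gene in each tissue, both matched to CYP707A4: GRMZM2G065928 was at 58.29 in leaf and listed at 0 in endosperm, and GRMZM2G105954 at 0.25 and 12.68. The latter and the AAO3-type gene were below 2 FPKM in all endosperm libraries up to 11 DAP, so for these genes the 4-fold endosperm lead held from 13 DAP on.

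Signalling genes of the same hormone were as divided. Receptor genes PYL6 and PYL8 were at 12.76 and 8.77 in endosperm and at 0.03 and 0 in leaf. Phosphatases of the HAI3 type, which hold the response down, were at 63.79 (PP2C11) in leaf and 48.0 (PP2C8) in endosperm, each low in the other tissue at 3.57 and 0.11. The ABF3-type bZIP gene was at 36.3 in endosperm and 3.48 in leaf, and the AFP2-type gene AC197717.3_FG002, a partner of such factors in Arabidopsis, at 156.15 and 9.56. XERICO, a RING protein linked to abscisic acid level in Arabidopsis, was at 75.28 in leaf and 0.55 in endosperm.

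Jasmonate genes were leaf-higher for 17 of 33 compared and endosperm-higher for 3 (66 identifiers, median 2.30). The lipoxygenase lox10, which makes green leaf volatiles in maize, was at 739.29 FPKM in leaf and 0.01 in endosperm, one of the highest ratios of all genes (9.52). The JAZ repressors, which jasmonate removes, were split: TIFY4, TIFY28 and TIFY20 were at 516.85, 383.09 and 73.23 in leaf and 12.96, 6.54 and 0.37 in endosperm, while the JAZ1-type genes GRMZM2G024680 and GRMZM2G064775 were at 86.35 and 15.13 in endosperm and 0.14 and 0.06 in leaf. GRMZM2G024680 was at 11.51 or more in each of the 8 endosperm libraries. A jasmonate methyltransferase-type gene (GRMZM2G405947) was at 24.05 in endosperm and 0.09 in leaf. Defence genes for pathogenesis-related proteins and chitinases, often induced with this hormone or with salicylate, were leaf-higher for 7 of 8 compared: pr5 was at 382.71 in leaf and 0.03 in endosperm and prp4 at 274.06 and listed at 0. The exception was a class IV chitinase gene (GRMZM2G005633), at 1.14 in leaf and 73.95 in endosperm, where it varied from 0 to 282.89.

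Ethylene genes gave 4 leaf-higher and 1 endosperm-higher of 10, and both the sign of their median and the direction that held more genes changed with the scaling. Brassinosteroid genes gave 6 and 2 of 20, with a median of 0.41. These were close to the shares of 27.0% and 9.62% and the median of 0.34 over all genes. More of them were leaf-higher under each scaling while the sign of the median changed, and both also held over all genes. Single steps were far apart. The ethylene-forming oxidase ACO was at 11.45 in leaf and listed at 0 in endosperm, while an EIN2-type gene (GRMZM2G370991), the signal carrier at the membrane, was listed at 0 in leaf and was at 14.21 in endosperm. The brassinosteroid oxidase Dwarf2 was at 32.91 in leaf and 1.27 in endosperm, and the earlier step matched to AtDWF4 at 0.24 and 7.7.

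Light and clock genes were leaf-higher for 23 of 32 compared and endosperm-higher for none (76 identifiers, median 3.11), in tissue taken at midday. The 3 LHY-type genes, clock factors whose transcripts are high in the morning in Arabidopsis, were at 37.61, 23.84 and 23.41 FPKM in leaf and at 0.92, 0.43 and 0.61 in endosperm. The pseudo-response regulator matched to APRR5 was at 99.57 and 6.04. The clock gene gigantea1 was at 19.7 and 7.2, short of 4-fold. The list also took in GRMZM2G326116 by its symbol ATPRR1, which at its Arabidopsis locus is a pinoresinol reductase and not a clock gene; it was counted among the 32 and was short of 4-fold. The florigen-like gene ZCN14 was at 16.91 in leaf and 0.05 in endosperm. Cryptochrome CRY3-type GRMZM2G103897 was at 61.08 and 0.05.

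Transcription factor genes numbered 323 compared of 1256 identifiers; 158 (48.9%) were leaf-higher and 36 (11.1%) endosperm-higher. B-box and CO-like factors, many of them tied to light and day length, were leaf-higher for 15 of 16 (36 identifiers, median 4.19), led by ATCOL5-type genes GRMZM2G038783 and GRMZM2G148772 at 99.96 and 55.0 in leaf and 0.07 and 0.03 in endosperm. WRKY factors, known from defence and ageing, were leaf-higher for 25 of 30 (121 identifiers, median 3.02). The genes matched to ATWRKY70, ATWRKY18, AtWRKY41 and ATWRKY33 were at 75.08, 61.95, 51.45 and 50.77 in leaf, and none was above 0.24 in 13 DAP endosperm. Each of these 4 had its highest endosperm value below 7 FPKM. The endosperm-higher WRKY gene, matched to WRKY21 (GRMZM2G147880), was at 13.9 in endosperm and 1.91 in leaf. Homeobox genes were leaf-higher for 15 of 22 and endosperm-higher for 1, and heat shock factors for 6 of 11 and none.

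**Figure D4:**
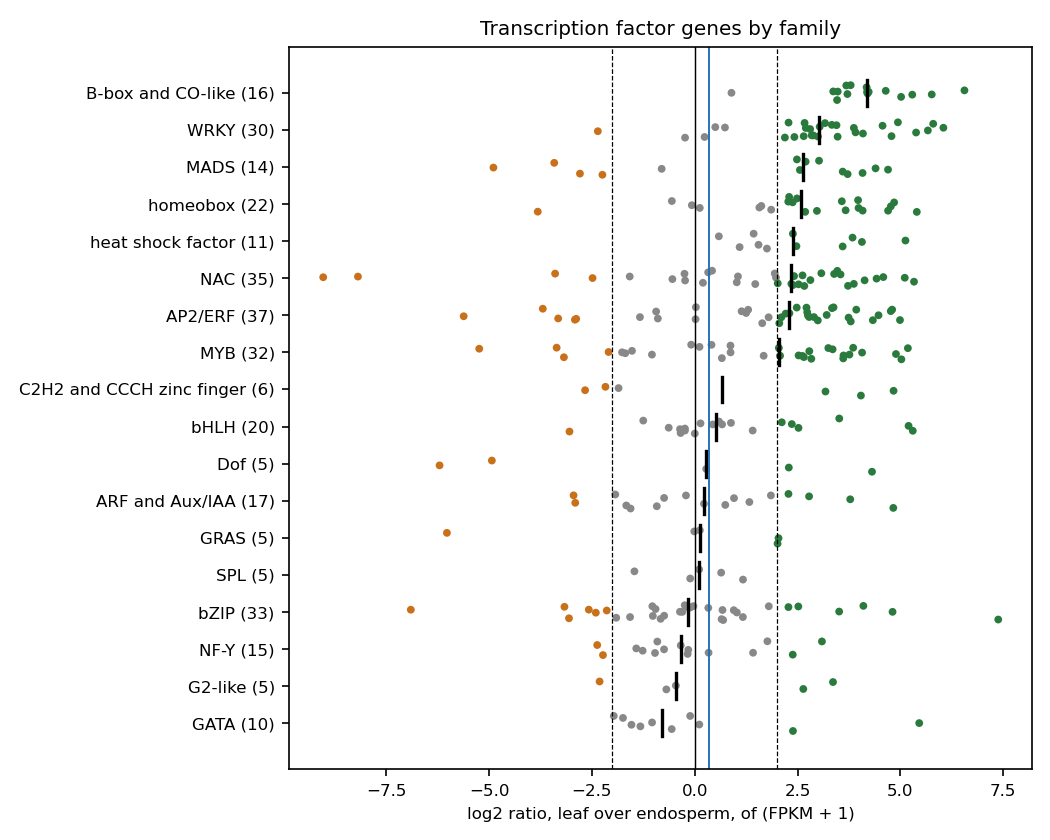
Log2 ratio of leaf over endosperm for each transcription factor gene compared, by family, with the number compared in parentheses; points are green at 4-fold or more to leaf, orange at 4-fold or more to endosperm and grey between, black bars are family medians, the blue line is the median over all genes (0.34), and dashed lines mark 4-fold. NAC holds the 2 points farthest to the endosperm side, and bZIP has members at both ends.

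Other large families had strong members on each side. NAC factors were leaf-higher for 19 of 35 and endosperm-higher for 4 (127 identifiers). Yet their highest gene was nac4, at 523.68 FPKM in endosperm and listed at 0 in leaf, followed by NRP1 at 299.84 and 0.03, both above 10 FPKM in every endosperm library. Leaf NAC genes were led by GRMZM2G347043 (matched to anac081) at 243.71 and 10.41. The whole list summed to 827 in leaf and 1030 in 13 DAP endosperm. At this stage the larger number of leaf-higher genes did not give the larger sum. The endosperm sums ran from 221 to 1240 and were below the leaf sum from 7 to 11 DAP. AP2/ERF factors were leaf-higher for 22 of 37 and endosperm-higher for 5 (114 identifiers); the AtERF71-type gene GRMZM2G050851 was at 49.13 in endosperm and 0.02 in leaf, and dbf1, named for binding the drought element, at 97.7 in leaf and 9.67 in endosperm. MYB factors gave 17 and 4 of 32 (171 identifiers), with the ATMYB73-type gene GRMZM2G369799 at 36.81 in endosperm and listed at 0 in leaf.

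Factors of the bZIP type were level in number, 6 and 6 of 33 compared (86 identifiers), and the sign of their median changed with the scaling. At the leaf end was bZIP61, matched to HY5, a light signalling factor in Arabidopsis, at 194.16 FPKM in leaf and 0.17 in endosperm. At the endosperm end was o2, the activator of zein genes, listed at 0 in leaf and at 118.8 in endosperm. Its partner the Dof factor pbf1 (GRMZM2G146283) was at 80.17 in endosperm and 0.10 in leaf, and DOF36 at 29.56 and listed at 0, while the CDF2-type Dof gene GRMZM2G162749, of a clock-linked type in Arabidopsis, was at 22.04 in leaf and 0.16 in endosperm. MADS factors gave 9 leaf-higher and 4 endosperm-higher of 14 (69 identifiers). Genes that match floral organ factors of Arabidopsis were found on both sides: MADS11, matched to AP3, was at 28.76 in endosperm and listed at 0 in leaf, and m16, matched to PI, at 16.93 and 1.59, whereas m28, matched to AGL7 (APETALA1), was at 0.7 in endosperm and 27.79 in leaf. The GRAS factor scl1, matched to RGA, was at 68.11 in endosperm and 0.06 in leaf. The Golden2-like gene glk1, a chloroplast development factor, was at 9.29 in leaf and listed at 0 in endosperm.

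Some families had a member far higher in leaf and another far higher in endosperm. A family was taken as the genes with the same Arabidopsis match (or the same description) and at least 2 members compared, and it counted as opposed when members of at least 10 FPKM were 4-fold apart in each direction. Of 2367 families, 50 (2.11%) were opposed. In 38 of them both leaf values lay outside the range of the 8 endosperm libraries, on the side of the 13 DAP difference. Whether 2.11% differs from what the shares of 27.0% and 9.62% over all genes would give was not tested. The leaf-higher member was not always the more abundant one in leaf, as for GRMZM2G106344 (60.25 FPKM) beside nrx1 (89.08). The matches say that members resemble the same Arabidopsis gene, not that they are a pair by descent. Reads could be shared among near-identical members, so their values are uncertain.

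**Figure D5:**
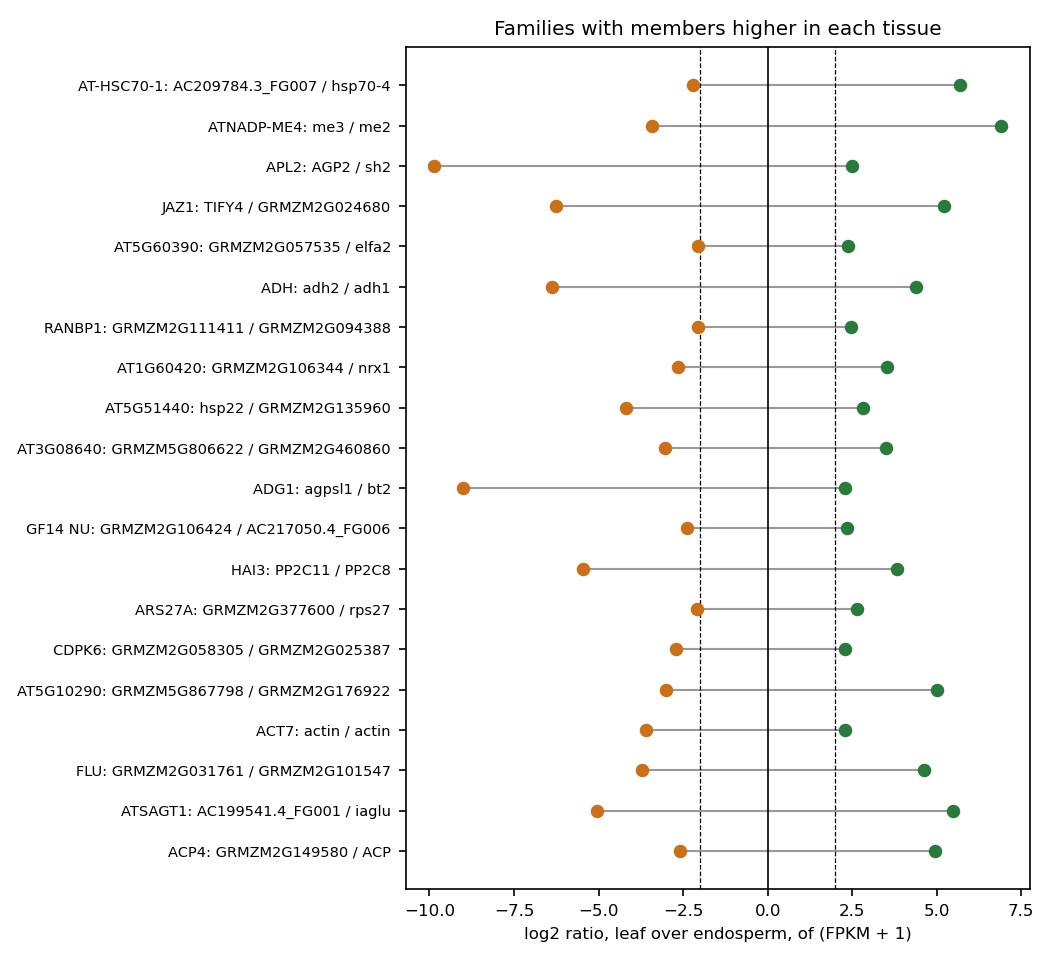
Log2 ratio of leaf over endosperm for the leaf-higher (green) and endosperm-higher (orange) member of 20 opposed families, those in which the smaller of the higher-tissue values was largest. Labels give the Arabidopsis match and the leaf-higher / endosperm-higher gene; dashed lines mark 4-fold, and APL2 and ADG1, both ADP-glucose pyrophosphorylase, have the widest span on the endosperm side.

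Enzymes of central metabolism were among these families. NADP-malic enzyme, which releases carbon dioxide in the bundle sheath, was at 262.89 FPKM in leaf and 1.19 in endosperm for me3, and at 13.91 and 158.88 for me2; me2 was at 63.8 or more in every endosperm library and me3 at no more than 2.21. ADP-glucose pyrophosphorylase, the committed step of starch synthesis, had the large subunit AGP2 at 132.5 in leaf and 22.74 in endosperm beside sh2 at 1.42 and 2270.38, and the small subunit agpsl1 at 51.91 and 9.78 beside bt2 at 3.7 and 2406.36. In the last case the leaf level of bt2 lay within its endosperm range, which began at 0.78 at 7 DAP. Starch synthase of the SS3 type was at 22.22 and 3.34 (GRMZM2G121612) and at 0.05 and 70.25 (du1). Glycolate oxidase was at 17.07 in leaf and listed at 0 in endosperm for go1, the photorespiratory enzyme, and at 0.38 and 16.15 for hao1.

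Signalling, cytoskeletal and chaperone families were opposed as well. The calcium-dependent kinases matched to CDPK6 were at 50.74 and 9.62 (GRMZM2G058305) and at 4.8 and 36.89 (GRMZM2G025387). An actin gene (GRMZM2G126190) was at 36.22 in leaf and 6.54 in endosperm, and another (GRMZM2G053299) at 12.54 and 162.03. Genes matched to FLU, which restrains chlorophyll synthesis in the dark in Arabidopsis, were at 36.09 and 0.51 (GRMZM2G031761) and at 4.28 and 68.46 (GRMZM2G101547). The cytosolic HSC70 genes were at 349.97 and 5.74 (AC209784.3_FG007) and at 160.82 and 753.45 (hsp70-4). In the list for folding and secretion in the endoplasmic reticulum, 2 genes were leaf-higher and 1 endosperm-higher of 22 compared, and which direction held more genes changed with the scaling. The calreticulin-type chaperone GRMZM2G305115 was at 298.35 in leaf and 11.65 in endosperm, and the disulfide isomerase pdi at 110.96 and 1547.94.

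Genes of growth and cell surface signalling differed as well. Receptor kinases were leaf-higher for 20 of 32 compared and endosperm-higher for 2 (142 identifiers, median 2.66); serk3, a coreceptor kinase, was at 25.94 in leaf and 0.73 in endosperm. Histones were endosperm-higher for 7 of 30 and leaf-higher for 1 (44 identifiers, median -0.86). The leaf-higher one was a linker histone matched to HIS1-3 (GRMZM2G069911), at 73.32 and 3.23. A core histone matched to HTA12 (GRMZM2G028955) was at 0.30 in leaf and 46.27 in endosperm, where it ranged from 0.41 to 181.61. Reads could be shared among histone copies.

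Among genes with a symbol or description that fell outside the photosynthesis, zein and starch groups, the widest ratios were as follows. Some at the leaf end still serve the chloroplast: they included a CP12-type gene (GRMZM2G480850), whose protein holds Calvin cycle enzymes inactive in the dark, at 1097.12 FPKM and listed at 0 in 13 DAP endosperm, and an early light-induced protein gene (GRMZM2G355752) at 1309.56 and 0.42. A lectin gene matched to ArathEULS3 was at 596.84 and listed at 0, and a BAG6-type cochaperone gene at 798.58 and 0.48. At the endosperm end stood leg1, a legumin storage globulin, at 0.12 in leaf and 1045.68 in endosperm. Next among these genes came fps1 and nac4, an LCR69-type cysteine-rich peptide gene (GRMZM2G046532) at 0.14 and 371.66, and an STR16-type sulfurtransferase gene (AC204711.3_FG003) at 0.03 and 321.85. The cystatin cc10, an inhibitor of cysteine proteases, was at 0.09 and 137.4, while other cystatins were leaf-higher, cc3 at 34.92 and 0.35. For each of these genes the leaf value lay outside the range of the 8 endosperm libraries.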

How the data were processed

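Poly(A) RNA was measured in 11 Mo17 libraries, 1 per group. The authors deposited FPKM values, to 2 decimals, for 34145 genes. The submitters' processing notes name cutadapt, TopHat2 and edgeR without roles; build, annotation and read counter: not given in the sources used here. Since whole reads could not be recovered, the depth behind each value is unknown, intervals for counting error are left out, and 0 means only that a gene is listed at 0. No column of values was left unused.

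The log2 ratio of FPKM + 1 was taken (Python 3.11.15, pandas 2.3.3) for genes of at least 5 FPKM in either 13 DAP library; it understates differences of low genes. The calculation was tested on simulated data. Names came from a RefSeq gene table of another assembly (18367 identifiers matched, 2610 with a maize gene name) and matches from the authors' Arabidopsis columns. The members and the 78 lists were chosen with earlier results of these data known. List patterns were corrected from descriptions alone, and the heat shock protein list was added after values were seen.

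Named genes were, per list, the highest member and up to 4 in each direction by level; the leading pair of 20 opposed families; the 15 widest ratios at each end among genes with a symbol or description, at most 2 per family; and markers. Genes chosen after their values were seen were pdc2, pdc3, ald1, mdh2, asn1, gln5, gln1, NIR, GRMZM2G085078, bx8, bx9, pOMT1, GRMZM2G021706, RR6, vp14, PYL6, PYL8, the 3 LHY-type genes, GRMZM2G326116, gigantea1 and ZCN14. A few lists hold genes taken in by name alone. Alternatives covered the pseudocount, filter, scaling, fold and endosperm stage.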

Additional observations from a re-analysis of the deposited data

How the results depend on the processing

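No paired analysis was possible because each group was 1 library, and for the same reason no library could be left out. With FPKM as deposited and a pseudocount of 1, 3089 genes were leaf-higher, 1100 endosperm-higher and 50 families opposed. A pseudocount of 5 gave 1444, 486 and 17. A 2-fold rule gave 2494 endosperm-higher genes and 127 families, and an 8-fold rule 1848, 529 and 21. Upper quartile scaling gave 1667 endosperm-higher genes, and a 4-fold difference against each of 11, 13 and 15 DAP endosperm was met by both members in 28 families. Leaf values above all endosperm values fell from 4756 to 3170 with a minimum of 10 FPKM, a setting chosen after the data were seen, which compares fewer genes. The cause of the other moves was not tested beyond what each setting does by construction. The other filters, scalings and single stages kept these counts within 1.5 times, and none of the 485 named genes past 4-fold changed direction under the settings tried. Of the 73 lists with at least 5 genes compared, 25 changed the sign of their median or the direction that held more genes over the scalings, 19 against the 11 or 15 DAP endosperm, and 27 under either. Depth is unknown, so the precision of low values could not be stated.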

Other observations

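Whole kernels at 3 and 5 DAP, which still hold maternal tissue around a small endosperm, carried many of the leaf-higher transcripts. Of the 3089 genes at least 4-fold higher in leaf, 2301 (74.5%) were higher in the 3 DAP kernel than in any endosperm library, and 2112 (68.4%) in the 5 DAP kernel; over all 11433 genes compared the counts were 4829 (42.2%) and 4577. For 15 leaf-higher lignin and phenylpropanoid genes, the median was 9.53 FPKM in the 3 DAP kernel, 0.84 for their highest endosperm values and 19.3 in leaf. For the 52 photosystem genes it was 0.455, 0.185 and 76.3. The benzoxazinoid gene BX4 was at 79.44 and 101.09 in the 3 and 5 DAP kernels and 98.23 in leaf, and at no more than 0.39 in endosperm. TIFY4 was at 99.22 and 126.0 in the kernels, between the endosperm range and the leaf. The alcohol dehydrogenase adh2 was at 117.0 and 169.76 in the kernels, above the leaf, and ZCN14 at 65.45 and 43.05, also above the leaf. Photosystem genes and lox10 (7.65 and 11.17) were below the leaf in both kernels. Of the 8 leaf-higher sulfur assimilation genes, 1 was higher in the 3 DAP kernel than in any endosperm library, and none was at 5 DAP.

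Of the 1100 endosperm-higher genes, 468 (42.5%) lay below every endosperm library at 3 DAP and 415 (37.7%) at 5 DAP, beside 10.2% and 9.62% of all genes compared. Both groups were chosen on the 13 DAP endosperm value, which is also one of the 8 compared with the kernels. Both TAR2-type genes and nac4 were among the low ones, nac4 at 0.24 and 0.55 FPKM.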
